A study of Mus musculus with 4 samples.

Results

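The genes described here are the Toll-like receptors with their co-receptors and adaptors, the kinases that carry their signal, the cytosolic sensors and inflammasome components, and the IKK, NF-kB and IkB genes. They were chosen by symbol from a written list of 50, and 47 of the 50 had a row among the 12661 genes of the deposited table. Tlr5, Tlr8 and Tlr9 had no row and were not analysed here. RNA-seq was done on the outer tissues surrounding the femoral artery (FA), mainly perivascular adipose tissue (PVAT), and the question was how endovascular injury of the artery alters expression in the tissue outside it. The injury group comprised 2 libraries taken 48 h after a spring wire of 0.38 mm in diameter had been passed into the FA, and the sham group comprised 2 libraries taken 48 h after a sham operation. All 4 libraries came from wild type C57BL/6 female mice that were 11 weeks old and ovariectomized, so that both groups share the loss of the ovaries. The labels do not say whether the replicates were separate mice or whether a library pooled several, and a p-value below measures only the spread between these libraries, which may be technical. All 10 adipocyte markers of a written list had a row, but a level of adipose identity cannot be read from gene-centred values.

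Toll-like receptors bind molecules of microbes or of damaged cells, at the cell surface or inside endosomes, and recruit the adaptors MyD88 or TRIF. Kinases of the IRAK, RIP and TAK1 complexes then lead to the IKK complex, which marks the inhibitory IkB proteins for destruction and lets NF-kB enter the nucleus. There NF-kB induces cytokine and chemokine genes and also some of its own brakes, among them IkBα. Cytosolic sensors such as NLRP3 and AIM2 join with the adaptor ASC and caspase-1 to form inflammasomes, which mature interleukin-1β and cleave gasdermin D. In adipose tissue and in the vessel wall these genes are best known from macrophages and other myeloid cells, although adipocytes, endothelium and smooth muscle use the pathway too.

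The deposited values are signed and centred gene by gene on what behaves as a log scale whose base is not stated. Differences are therefore given in deposited units and not as folds, and the level of a gene cannot be compared with the level of another. Each difference is the mean of the injury libraries minus the mean of the sham libraries, fitted with limma on all 12661 genes with Benjamini-Hochberg adjustment over all of them, and a gene is called at an adjusted p under 0.05. Read depth is unknown for these libraries.

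Of the 47 genes, 7 rose after injury and 0 fell. The called genes were Nlrp3, Tlr13, Tlr1, Tlr7, Ikbke, Ticam2 and Pycard, with differences from 1.01 to 2.34 deposited units and adjusted p from 0.0285 to 0.0422. That is 14.9% of these genes, where 3.76% of all genes were called higher, 3.67% lower and 7.43% in either direction. At an unadjusted p under 0.05 limma gave 15 of the 47 genes higher and 0 lower, where 14.8% of all genes were higher by that measure and 29.5% passed in either direction. Both injury libraries lay above both sham libraries for 21 genes, both lay below for Nod1 alone, and the groups overlapped for the other 25. Over all genes, both injury libraries lay above both sham libraries in 31.6% and below in 30.3%. The mean was higher after injury for 40 of the 47 genes and for 50.9% of all genes. The median difference of the 47 genes was 0.253 units, beside 0.0085 over all genes. By role, 3 of 7 Toll-like receptors and 2 of 9 cytosolic sensor and inflammasome genes were called, and 0 of 5 NF-kB subunits and 0 of 10 intermediate kinases and their partners. Whether these shares differ between the groups of genes was not tested.

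Every one of the 7 calls needed both sham libraries. Without sham replicate 1 or without sham replicate 2, 0 of the 47 genes were called by limma, although 9 and 12 of them were higher at an unadjusted p under 0.05, where 7.75% and 9.62% of all genes were. The same happened over the whole table, with 0 and 1 of 12661 genes called. Without injury replicate 1 Tlr1 and Ikbke alone kept the call, and the 7 differences were 0.86 to 1.87 units. Without injury replicate 2 further genes were called, all higher, and the 7 differences were 1.16 to 2.96 units. Over the whole table the calls likewise became fewer without injury replicate 1 and more without injury replicate 2. In each of these fits the lone library is assumed to vary like the other group. The 7 differences kept their direction in every fit, at 1.15 to 2.03 units without sham replicate 1 and 0.87 to 2.66 without sham replicate 2. With a library left out this was fixed in advance, because the groups did not overlap for any of the 7.

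**Figure D1:**
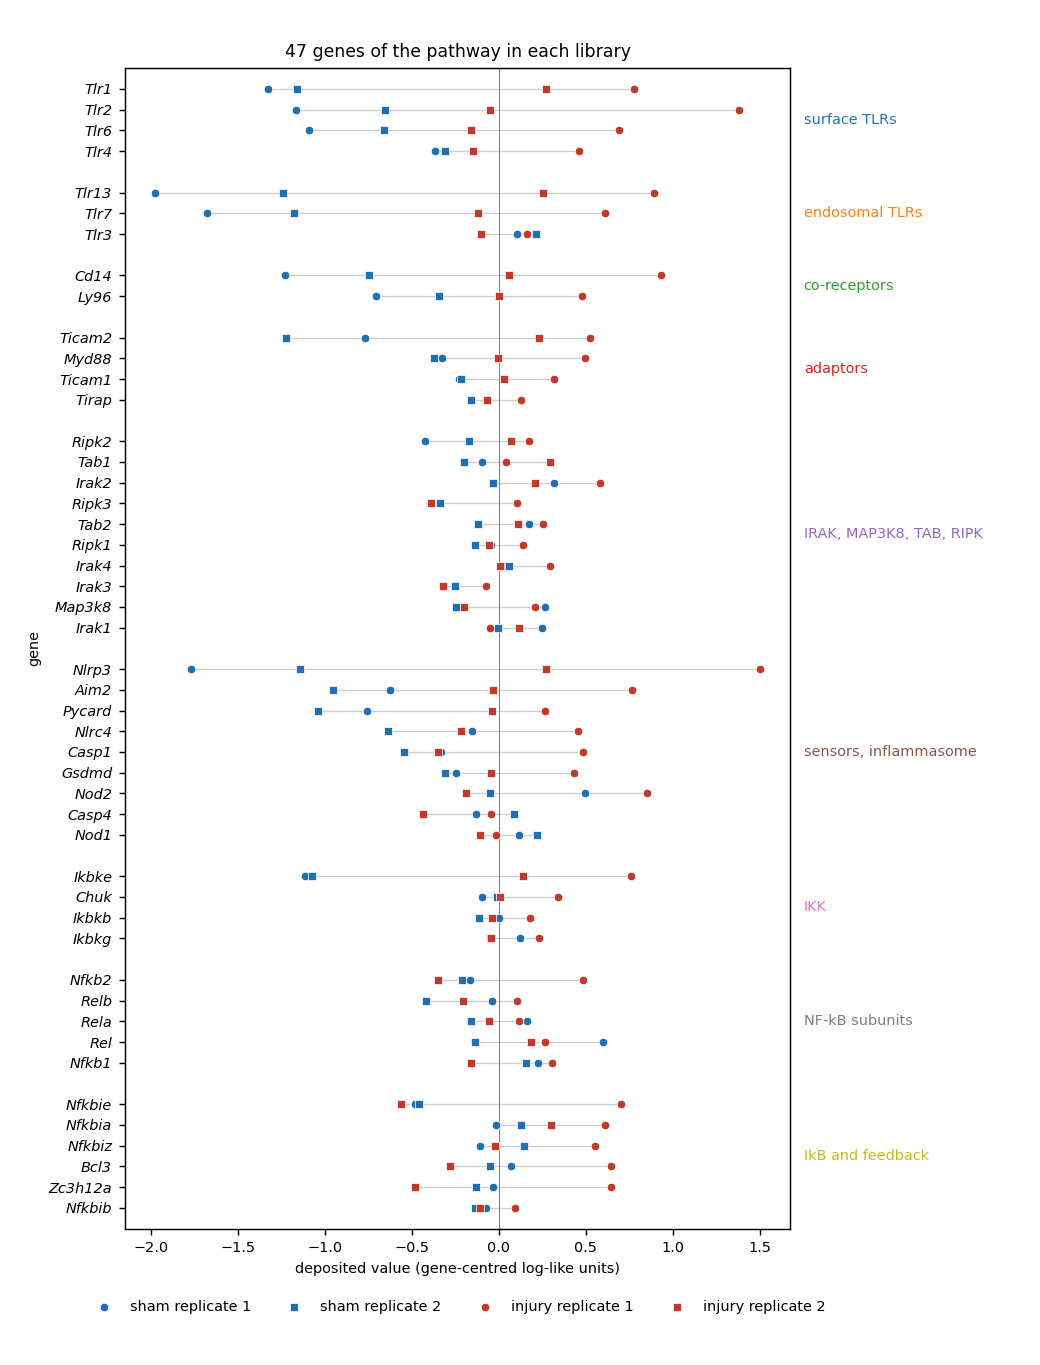
Deposited value (gene-centred, log-like units) of each of the 47 genes in sham replicates 1 and 2 and injury replicates 1 and 2, 1 point per library, with genes grouped by role. The 7 called genes have both injury libraries well above both sham libraries, and injury replicate 1 lies above injury replicate 2 for 45 of the 47 genes.

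The promoters of a few of these genes are printed first, to show which of them hold a sequence that NF-kB or a myeloid factor can bind. RefSeq promoter windows on build GRCm38.p6 were at hand for 34 of the 47 genes, each from 250 bases before to 50 bases after an annotated start. They were searched on both strands for the kB consensus bound by NF-kB and for GAGGAAGT, a sequence bound by the myeloid factor PU.1. The 250 bases before the start are printed here in the gene's own direction, 5′ to 3′, with kB matches in capitals in the first 5. Of the 7 called genes, 5 had a window (Tlr7 and Ticam2 had none), and of these Nlrp3 was the only one with a kB match, in the window of the second of its listed starts (chr11:59541319-59541568, plus strand), 186 bases before the start and on the opposite strand.
Nlrp3: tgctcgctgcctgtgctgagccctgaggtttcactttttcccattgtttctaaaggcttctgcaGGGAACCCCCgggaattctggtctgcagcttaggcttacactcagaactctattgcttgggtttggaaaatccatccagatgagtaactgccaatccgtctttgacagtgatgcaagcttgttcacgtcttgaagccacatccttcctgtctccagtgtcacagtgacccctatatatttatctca

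The following promoters were chosen after their values were seen, to show what kB matches look like in receptor, subunit and inhibitor genes of the pathway that were not called. Tlr2 (chr3:83841609-83841858, minus strand) has a pair of overlapping matches that begin 173 and 172 bases before the start and a match that begins 8 bases before it and runs past the end of the printed window. Nfkb2 (chr19:46304487-46304736, plus strand, the first of its listed starts) has overlapping matches 39 and 38 bases before the start and a further match 11 bases before it. Rel (chr11:23770970-23771219, minus strand) has overlapping matches 92 and 91 bases before its start and, left in lower case, a GAGGAAGT 189 bases before it, and Nfkbia (chr12:55492648-55492897, minus strand) has a match 29 bases before its start.
Tlr2: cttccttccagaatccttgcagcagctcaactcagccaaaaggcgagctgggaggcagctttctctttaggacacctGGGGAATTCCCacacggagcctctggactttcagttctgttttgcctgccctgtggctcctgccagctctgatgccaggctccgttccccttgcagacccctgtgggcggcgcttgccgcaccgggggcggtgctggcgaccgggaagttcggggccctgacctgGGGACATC
Nfkb2: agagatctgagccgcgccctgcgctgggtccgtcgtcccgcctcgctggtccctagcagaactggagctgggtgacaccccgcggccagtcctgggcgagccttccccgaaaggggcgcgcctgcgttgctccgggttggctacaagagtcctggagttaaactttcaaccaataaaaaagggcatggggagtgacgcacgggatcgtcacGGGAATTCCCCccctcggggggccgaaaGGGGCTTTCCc
Rel: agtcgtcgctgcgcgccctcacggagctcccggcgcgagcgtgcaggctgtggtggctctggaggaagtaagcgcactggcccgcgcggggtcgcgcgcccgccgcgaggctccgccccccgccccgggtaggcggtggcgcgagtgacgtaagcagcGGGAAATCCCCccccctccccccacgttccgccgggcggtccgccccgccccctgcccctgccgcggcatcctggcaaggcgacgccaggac
Nfkbia: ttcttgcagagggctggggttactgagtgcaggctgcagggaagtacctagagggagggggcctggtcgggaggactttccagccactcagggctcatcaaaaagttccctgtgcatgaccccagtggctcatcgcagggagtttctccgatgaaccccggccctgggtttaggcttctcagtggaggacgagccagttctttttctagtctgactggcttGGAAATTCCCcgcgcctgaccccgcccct

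Tlr1 (chr5:64933559-64933808, minus strand, the first of its listed starts) and Pycard (chr7:127993868-127994117, minus strand) are the called genes with GAGGAAGT, which is in capitals here. It begins 23 bases before the Tlr1 start on the gene's strand, and 44 bases before the Pycard start on the opposite strand, where it reads as its reverse complement. These promoters too were chosen after the values were seen.
Tlr1: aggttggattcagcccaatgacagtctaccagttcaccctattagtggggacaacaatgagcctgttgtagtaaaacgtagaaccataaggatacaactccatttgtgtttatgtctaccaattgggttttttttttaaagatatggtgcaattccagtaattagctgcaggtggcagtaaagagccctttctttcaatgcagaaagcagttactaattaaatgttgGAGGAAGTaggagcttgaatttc
Pycard: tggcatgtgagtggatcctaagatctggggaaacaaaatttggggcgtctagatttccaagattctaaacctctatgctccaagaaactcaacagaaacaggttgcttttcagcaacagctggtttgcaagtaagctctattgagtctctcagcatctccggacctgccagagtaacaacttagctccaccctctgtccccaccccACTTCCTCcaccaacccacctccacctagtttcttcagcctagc

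A kB match lay in a promoter window of 9 of the 34 genes, which is 26.5%, beside 5.14% of 27025 genes with a promoter in the same table. The 9 were Tlr2, Tlr3, Nlrp3, Casp4, Nfkb2, Rel, Nfkbia, Nfkbie and Bcl3, and 1 of them was called. GAGGAAGT was found in 4 of the 34, namely Tlr1, Aim2, Pycard and Rel, beside 3.69% of all genes. The AP-1 motif TGANTCA was found in Ikbke, Ikbkg, Nfkb2 and Nfkbie, beside 8.97% of all genes. A match describes the letters of these windows only, and windows of genes with several listed starts were all searched.

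Among the Toll-like receptors of the cell surface, Tlr1 rose after injury, and Tlr2, Tlr6 and Tlr4 were higher in both injury libraries without passing the test. Tlr1 (chr5:65316050-65324000 on mm9, minus strand) encodes the partner of TLR2 for triacylated bacterial lipopeptides. Its values were −1.33 and −1.16 in sham replicates 1 and 2, and 0.78 and 0.27 in injury replicates 1 and 2. Both injury libraries were above both sham libraries by a gap of 1.43 units. The difference was 1.77 units (SE 0.21, limma adjusted p = 0.0285). Tlr6 lies beside Tlr1 and encodes the alternative partner of TLR2, for diacylated lipopeptides. Its values were −1.09 and −0.66 in the sham libraries and 0.69 and −0.16 after injury, and its difference was 1.14 units (adjusted p = 0.085). The transcripts of Tlr1 and Tlr6 share 10.1% and 10.3% of their 100-base windows, so a small share of reads cannot be told apart between them.

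Tlr2, the shared partner and sensor of lipopeptides, had a difference of 1.58 units (SE 0.48, adjusted p = 0.101). Its values were −1.17 and −0.66 in the sham libraries and 1.38 and −0.05 in the injury libraries. The groups did not overlap, but the injury libraries were 1.43 units apart. Tlr4, the receptor for lipopolysaccharide, stood at −0.37 and −0.31 in the sham libraries and at 0.46 and −0.15 in the injury libraries. Injury replicate 2 was thus only 0.16 units above the nearer sham library, and the difference of 0.50 units (95% interval −0.07 to 1.06) was not called.

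The co-receptors of TLR4 had positive differences and were not called. Cd14, which hands lipopolysaccharide to the receptor and is a monocyte marker, measured −1.23 and −0.75 after sham operation and 0.93 and 0.06 after injury. Its difference of 1.48 units (SE 0.33) had an adjusted p of 0.0558, and of 0.0451 with columns scaled to one spread. Ly96 encodes MD-2, the lipopolysaccharide-binding subunit of the TLR4 complex. It stood at −0.71 and −0.35 after sham operation and at 0.48 and 0.00 after injury, a difference of 0.76 units (adjusted p = 0.0934). The injury libraries of both genes were above both sham libraries, and injury replicate 1 was the higher of the pair.

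Of the endosomal receptors, Tlr13 and Tlr7 rose and Tlr3 did not pass the test in either direction. Tlr13 (chrX:103338543-103355832 on mm9, plus strand) is a mouse receptor for bacterial ribosomal RNA. Its values were −1.98 and −1.24 in the sham libraries and 0.89 and 0.26 in the injury libraries, with a gap of 1.5 units between the groups. The difference of 2.19 units (SE 0.32, adjusted p = 0.0301) was larger than that of 99.8% of all genes. Tlr7 (chrX:163742861-163768490 on mm9, minus strand), a receptor for RNA rich in guanosine and uridine, stood at −1.68 and −1.18 after sham operation and at 0.61 and −0.12 after injury. The groups were separated by 1.05 units, and the difference was 1.67 units (SE 0.30, adjusted p = 0.0383). With the replicate number as a block the adjusted p of Tlr7 was 0.0535.

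Tlr3, which binds paired strands of RNA and signals through TRIF, was not called. It stood at 0.10 and 0.21 in the sham libraries and at 0.16 and −0.10 in the injury libraries, and these overlapped. The difference was −0.13 units with a 95% interval from −0.52 to 0.26.

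The adaptors all had positive differences, and Ticam2 was the called one. Ticam2 (chr18:46718809-46734187 on mm9, minus strand) encodes TRAM, which couples TLR4 to TRIF from endosomes. It stood at −0.77 and −1.22 in the sham libraries and at 0.52 and 0.23 in the injury libraries, 1.0 unit apart at the nearest. The difference was 1.37 units (SE 0.21, adjusted p = 0.0308). The value of this gene is partly uncertain, because 33% of its 100-base windows are shared with the overlapping gene Tmed7. Tmed7 itself had a difference of 0.17 units (adjusted p = 0.527), and its groups overlapped.

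The other adaptors were smaller in difference. Myd88, used by nearly all Toll-like receptors and by the interleukin-1 receptor, had a difference of 0.59 units (95% interval 0.095 to 1.09, adjusted p = 0.123). Ticam1, which encodes TRIF, had a difference of 0.40 units (adjusted p = 0.165). Tirap, which bridges TLR2 and TLR4 to MyD88, was lowest at −0.07 and −0.16 in the sham libraries and 0.12 and −0.07 in the injury libraries, with a difference of 0.14 units (adjusted p = 0.561). Each adaptor had both injury libraries above both sham libraries, by a gap that rounds to 0.00 units for Tirap.

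The kinases and scaffolds between adaptors and IKK had differences from −0.09 to 0.42 units. None of the 10 was called, 1 of them (Ripk2) was higher at an unadjusted p under 0.05 by limma, and their median difference was 0.14 units. Ripk2, the kinase that NOD1 and NOD2 recruit, was the highest. Its values were −0.42 and −0.17 after sham operation and 0.17 and 0.07 after injury, a difference of 0.42 units (95% interval 0.03 to 0.81, adjusted p = 0.149). Irak1, a kinase recruited by MyD88, was the lowest, with values of 0.25 and −0.01 after sham operation and −0.05 and 0.12 after injury. The Irak1 groups overlapped and the difference was −0.09 units.

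The rest of this group lay between these. The differences were 0.32 units for Tab1 and 0.16 for Tab2, the partners of the kinase TAK1. They were 0.25 units for Irak2, 0.10 for Irak4 and 0.09 for Irak3, the last an inhibitory member of its family. They were 0.22 units for Ripk3, a kinase of necroptosis, and 0.13 for Ripk1. Map3k8, a kinase upstream of ERK, had a difference of −0.0046 units. Of these genes, Tab1 was the only one besides Ripk2 with both injury libraries above both sham libraries.

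Among the cytosolic sensors and inflammasome genes, the sensor Nlrp3 and the adaptor Pycard rose, and the caspases and gasdermin D did not pass the test. Nlrp3 (chr11:59355070-59380458 on mm9, plus strand), whose promoter with a kB match is printed above, measured −1.77 and −1.14 after sham operation, against 1.5 and 0.27 after injury. The nearest libraries of the groups were 1.41 units apart. Its difference of 2.34 units (SE 0.44, 95% interval 1.25 to 3.44, adjusted p = 0.0422) was the largest of the 47 genes and ranked 17 among all 12661. The injury libraries were 1.23 units apart, and with the replicate number as a block the adjusted p was 0.0535. Without injury replicate 1 the difference was 1.73 units, and without injury replicate 2 it was 2.96.

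Pycard (chr7:135135617-135137381 on mm9, minus strand) encodes ASC, the adaptor that joins several sensors to caspase-1. It stood at −0.76 and −1.04 in the sham libraries and at 0.26 and −0.04 in the injury libraries, which left 0.72 units between the groups. The difference was 1.01 units (SE 0.18, adjusted p = 0.0386). Nlrp3, Pycard and Tlr2 are among the immune genes that the study displayed from these same libraries, so their direction is not independent evidence.

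Aim2, a sensor of cytosolic DNA, was higher in both injury libraries and not called. It stood at −0.63 and −0.96 after sham operation and at 0.76 and −0.03 after injury, a difference of 1.16 units (adjusted p = 0.0711). With the replicate number as a block its adjusted p was 0.0429. Gsdmd, whose product forms the pores of pyroptosis, had a difference of 0.47 units (adjusted p = 0.178). The groups overlapped for Nlrc4, the partner of the NAIP sensors of flagellin, for Casp1 and for Casp4. Their differences were 0.51, 0.51 and −0.22 units. With a library left out they ranged from 0.18 to 0.85, from 0.09 to 0.92 and from −0.41 to −0.02 units.

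The NOD sensors of bacterial cell wall fragments were not called. Nod1 was the lowest of the 47 genes, measuring 0.12 and 0.22 after sham operation and −0.02 and −0.11 after injury. Both injury libraries were below both sham libraries, yet the difference of −0.23 units (95% interval −0.57 to 0.11, adjusted p = 0.326) was not called. Nod2 had a difference of 0.11 units, and its injury libraries were 1.04 units apart.

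Within the IKK group, the IKK-related kinase gene Ikbke rose, and the genes of the core complex did not pass the test. Ikbke (chr1:133150920-133176183 on mm9, minus strand) encodes IKKε, which acts with TBK1 upstream of interferon genes and is itself known as an inducible kinase. Its values were −1.12 and −1.08 in the sham libraries and 0.76 and 0.14 in the injury libraries, with 1.21 units between the groups. The difference was 1.54 units (SE 0.23, adjusted p = 0.0301). Chuk and Ikbkb, the catalytic subunits IKKα and IKKβ, had differences of 0.23 and 0.12 units. Ikbkg, the regulatory subunit NEMO, was the lowest of the group at 0.12 and −0.05 after sham operation and 0.23 and −0.04 after injury. Its difference was 0.06 units with a 95% interval from −0.35 to 0.47.

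The NF-kB subunits themselves had differences from −0.12 to 0.26 units. By limma 0 of 5 were called and 0 of 5 had an unadjusted p under 0.05, and the groups overlapped for all 5. Nfkb2, the precursor of the non-canonical pathway, was the highest. It stood at −0.17 and −0.21 in the sham libraries and at 0.48 and −0.35 in the injury libraries, so that injury replicate 1 was above and injury replicate 2 below both sham libraries. The Nfkb2 difference was 0.26 units with a 95% interval from −0.46 to 0.97. Nfkb1 was the lowest, with 0.22 and 0.16 in the sham libraries, 0.31 and −0.16 in the injury libraries and a difference of −0.12 units. The differences were 0.18 units for Relb and 0.03 for Rela, the main transactivating subunit. For Rela the 95% interval ran from −0.40 to 0.46 units. Rel, found mainly in lymphoid and myeloid cells, had a difference of −0.0035 units, and its sham libraries were 0.60 and −0.14. A gene's RNA does not show where its protein was in the cell, and nuclear NF-kB was not measured.

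The IkB family and feedback genes all had positive differences, from 0.10 to 0.54 units, and none was called or had an unadjusted p under 0.05 by limma. Nfkbia encodes IkBα, an early target of NF-kB and its main inhibitor. It was the only one of the 6 with both injury libraries above both sham libraries, at −0.01 and 0.13 after sham operation and 0.61 and 0.30 after injury. Its difference was 0.40 units (95% interval −0.02 to 0.81, adjusted p = 0.186). Nfkbie, which encodes IkBε, had the largest difference of the group, 0.54 units, on values of −0.49 and −0.46 after sham operation and of 0.71 and −0.56 after injury. Nfkbib was the lowest, at −0.07 and −0.14 after sham operation and 0.09 and −0.11 after injury and a difference of 0.10 units. The differences were 0.25 units for Nfkbiz and 0.17 for Bcl3, the nuclear IkB proteins, and 0.16 for Zc3h12a, which encodes the RNase Regnase-1.

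**Figure D2:**
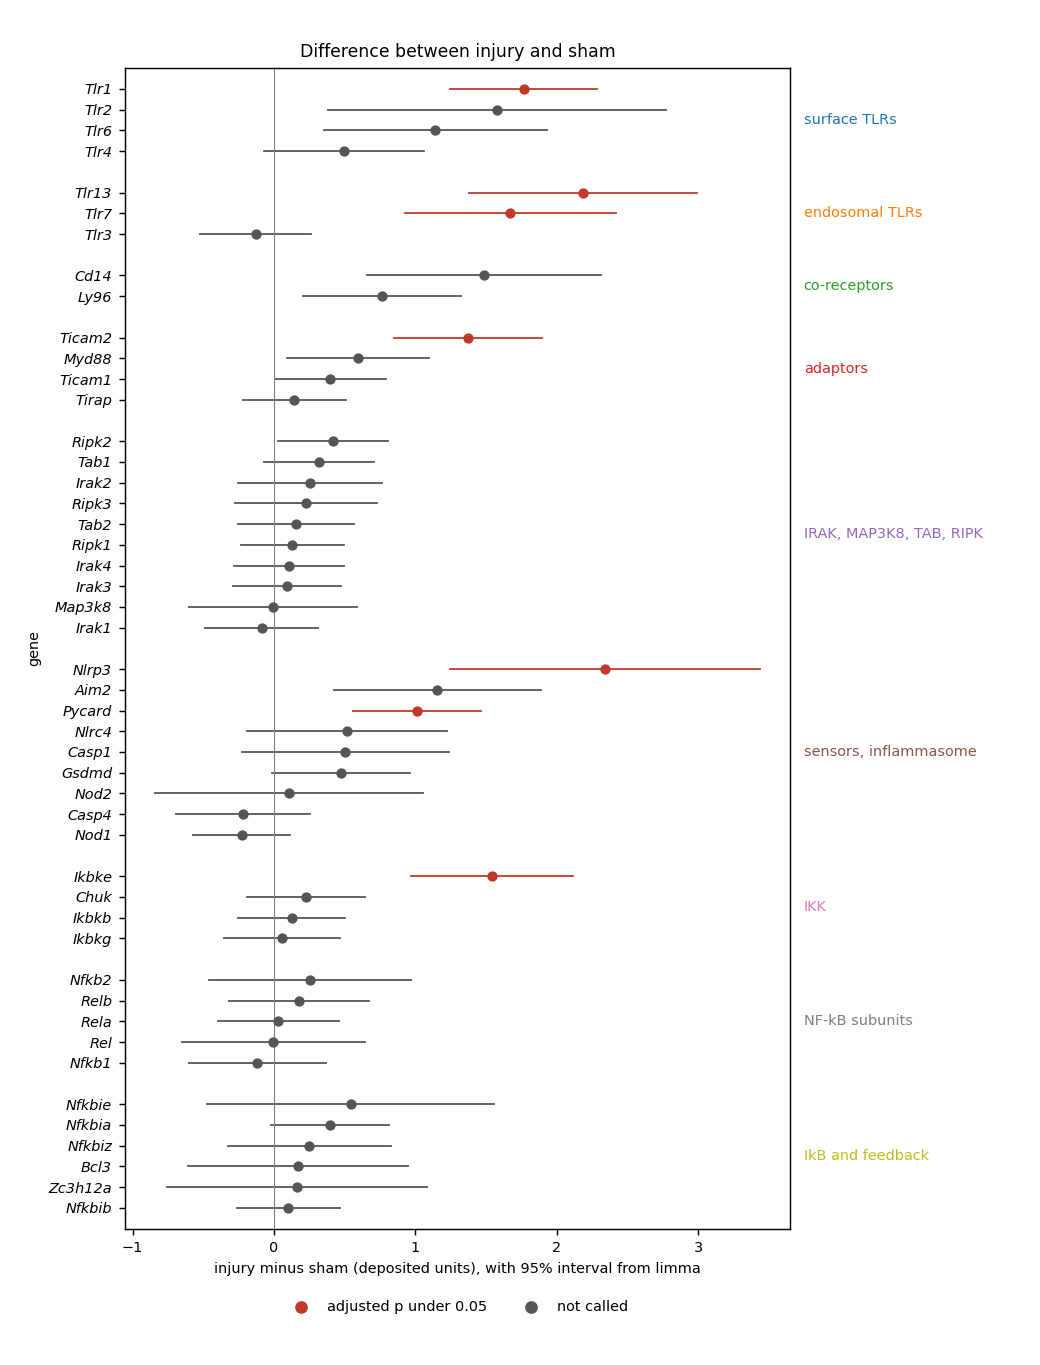
Difference between injury and sham for each of the 47 genes, in deposited units, with the 95% interval from limma as a bar and the called genes in red. The intervals of the NF-kB subunits all include 0, while those of Nlrp3, Tlr13, Tlr1, Tlr7, Ikbke, Ticam2 and Pycard lie above 0.5.

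The injury libraries were not alike in these genes. Injury replicate 1 was above injury replicate 2 for 45 of the 47 genes, or 95.7%, with Tab1 and Irak1 as the exceptions, where the share over all genes was 48.9%. The median gap between them was 0.41 units. Injury replicate 1 was above both sham libraries for 40 of the genes and injury replicate 2 for 21, which are 85.1% and 44.7% beside 42.4% and 41.7% of all genes, and no gene was above both in injury replicate 2 alone. In 8 genes injury replicate 1 lay above and injury replicate 2 below both sham libraries, which is 17% beside 4.99% of all genes. These were Irak3, Irak4, Nod2, Nfkb1, Nfkb2, Nfkbie, Bcl3 and Zc3h12a, which are mostly signalling, subunit and feedback genes.

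The widest gaps between the injury libraries were in Tlr2 (1.43 units), Nfkbie (1.27), Nlrp3 (1.23), Zc3h12a (1.13) and Nod2 (1.04). For Bcl3 the values were 0.07 and −0.05 after sham operation and 0.65 and −0.28 after injury. For Zc3h12a they were −0.03 and −0.13 after sham operation and 0.64 and −0.48 after injury. All 7 called genes had both injury libraries above both sham libraries, and for each of them the gap between the injury libraries was smaller than the gap between the groups. The test favours a large difference on a small spread, so this largely follows from the call. Without injury replicate 2 the differences were 2.29 units for Tlr2, 1.92 for Cd14, 1.177 for Nfkbie and 0.73 for Zc3h12a. Without injury replicate 1 they were 0.86 units for Tlr2, 1.05 for Cd14, −0.09 for Nfkbie and −0.40 for Zc3h12a. The median difference of the 47 genes was 0.06 units without injury replicate 1 and 0.54 without injury replicate 2. The labels give no time, dose or batch by which the injury libraries differ.

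**Figure D3:**
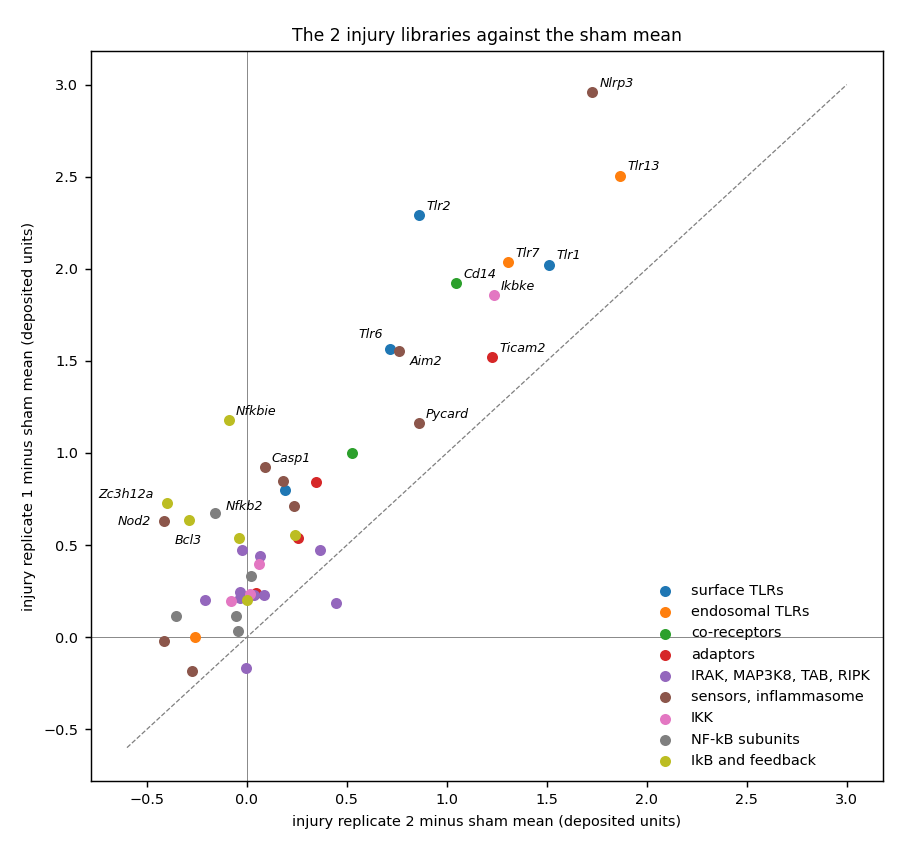
Difference of each injury library from the sham mean, in deposited units, with injury replicate 2 on the horizontal and injury replicate 1 on the vertical axis, 1 point per gene coloured by role, and the line of equal values dashed. All but 2 of the 47 points lie above the line, and genes such as Zc3h12a, Nod2, Bcl3 and Nfkb2 lie above 0 in injury replicate 1 and below 0 in injury replicate 2.

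Other genes of the same pathways, from written lists, were read in the same fit. Of 21 further genes of Toll-like receptor signalling, 3 rose and 1 fell, and their median difference was 0.15 units. Ly86, which encodes MD-1, rose by 2.10 units (adjusted p = 0.0285). Irf5, the transcription factor downstream of TLR7 and MyD88, rose by 1.81 units (adjusted p = 0.0291). Unc93b1, the chaperone that carries TLR3, TLR7 and TLR13 to endosomes, rose by 1.19 units (adjusted p = 0.0291). Lbp, the lipopolysaccharide-binding protein, fell by 1.75 units (adjusted p = 0.0285), with both injury libraries below both sham libraries. Cd180, the partner of MD-1, had a difference of 1.73 units, Pik3ap1 of 1.33 and Irf7 of 0.79, and these were not called. With a library left out they ranged from 0.93 to 2.53, from 0.67 to 1.99 and from 0.36 to 1.22 units. Without injury replicate 1 the adjusted p of Unc93b1 was 0.0533.

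Of 14 further inflammasome and pyroptosis genes, 2 rose and 0 fell, and the median difference was 0.60 units. These were Naip5 and Naip6, sensors that work with NLRC4, with differences of 1.59 and 1.20 units and adjusted p of 0.0285 and 0.0319. Their transcripts share 10.9% and 6.24% of 100-base windows with other Naip genes, so their reads are partly uncertain, and without injury replicate 1 the adjusted p of Naip6 was 0.073. Il1b, the substrate of caspase-1, stood at −1.89 and −0.88 in the sham libraries and at 1.72 and −0.22 in the injury libraries. Its groups did not overlap, and its difference of 2.13 units (SE 0.67, adjusted p = 0.11) was not called. Mefv, which encodes the sensor pyrin, had a difference of 2.07 units (adjusted p = 0.0616, and 0.0482 with columns scaled to one spread), and Il1a of 1.20 (adjusted p = 0.0825).

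Of 20 further regulators of NF-kB, 2 rose and 0 fell, and the median difference was 0.29 units. Card9, an adaptor of C-type lectin receptors in myeloid cells, rose by 1.6 units (adjusted p = 0.0285), and Tnip3, a binding partner of the deubiquitinase A20, rose by 1.34 (adjusted p = 0.0291). Nfkbid had a difference of 1.63 units and Tnfaip3, which encodes A20, of 0.97, and these were not called. With the replicate number as a block the adjusted p of Nfkbid was 0.0467.

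Of 18 known targets of NF-kB, 2 rose and 0 fell, and the median difference was 0.84 units. Bcl2a1b, an inhibitor of apoptosis, rose by 2.26 units (adjusted p = 0.0285), but 56.7% of its 100-base windows are shared with near-identical copies and a neighbour. Ccl5, a chemokine of T cells and monocytes, rose by 1.95 units (adjusted p = 0.0291). Cxcl2, a neutrophil chemokine, had a difference of 2.45 units (adjusted p = 0.057), Tnf of 2.05 (adjusted p = 0.0907) and Ccl2 of 1.93 (adjusted p = 0.0665), with both injury libraries above both sham libraries for each. Cxcl2 was called after quantile normalization and with columns scaled to one spread, at adjusted p of 0.0383 and 0.0374. The vascular adhesion molecules Icam1 and Vcam1, named after their values were seen, were lower in both injury libraries and not called, with differences of −0.95 (adjusted p = 0.0897) and −1.06 units (adjusted p = 0.0591). Vcam1 was called lower after quantile normalization and with columns scaled to one spread. In all 4 lists, 0 genes were called by limma when either sham library was left out, while 3 to 7 genes of each list were higher at an unadjusted p under 0.05.

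**Figure D4:**
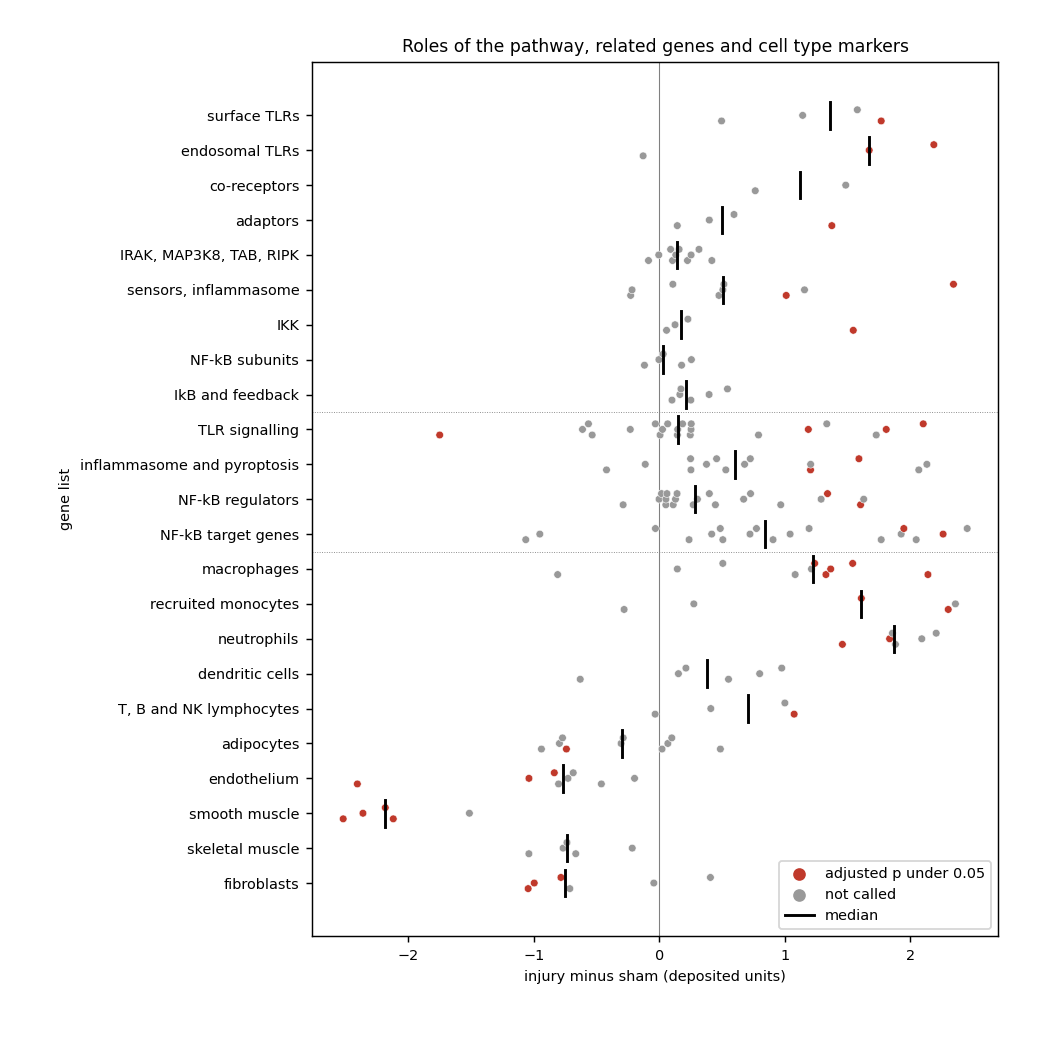
Differences between injury and sham, in deposited units, for the 47 genes by role and for the other pathway and cell type marker lists, 1 point per gene, called genes in red and a bar at each list's median. The medians are 1.36 and 1.67 for surface and endosomal Toll-like receptors, 0.03 for NF-kB subunits, 1.22 for macrophage markers and −2.18 for smooth muscle markers.

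Markers of myeloid cells were read in the same fit, and no test linked them to the 47 genes. Of 10 macrophage markers, 5 rose and 0 fell, with a median difference of 1.22 units, and the mean of the list was −0.90 and −0.96 in the sham libraries and 0.26 and −0.18 in the injury libraries. After quantile normalization 3 of the 10 rose, without injury replicate 1 only 1 rose, and without injury replicate 2 there were 7 that rose and 1 that fell. Cd163, a marker of resident macrophages named after its value was seen, was lower in both injury libraries with a difference of −0.81 units and was not called with all 4 libraries, and the monocyte marker Fn1 had overlapping groups and a difference of −0.28 units. Of 5 markers of recruited monocytes, 2 rose, with list means of −0.92 and −0.74 after sham operation and 0.75 and 0.09 after injury. Of the 6 neutrophil markers with a row, 2 rose, with list means of −1.35 and −0.94 after sham operation and 1.29 and 0.20 after injury. After quantile normalization, or with columns scaled to one spread, 4 of the neutrophil markers rose. Without injury replicate 1 the calls were 1 monocyte and 2 neutrophil markers, and without injury replicate 2 they were 4 and 6. With either sham library left out limma called 0 markers of these 3 lists, while 2 to 7 of each were higher at an unadjusted p under 0.05. Ly6g, Mpo, Elane, Camp and Ltf had no row. In each of these lists injury replicate 1 was the higher of the injury libraries, as it was for 45 of the 47 genes.

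Some markers of resident cells fell. Of 5 smooth muscle markers 4 fell, with list means of 1.70 and 1.0 in the sham libraries and −1.33 and −0.25 in the injury libraries. Of 8 endothelial markers 3 fell and of 6 fibroblast markers 3 fell. Of 10 adipocyte markers 1 fell, with list means of 0.22 and 0.35 after sham operation and −0.23 and 0.18 after injury. With the replicate number as a block limma called 0 smooth muscle, 0 adipocyte and 0 fibroblast markers, while 5, 4 and 3 of them were lower at an unadjusted p under 0.05. Without injury replicate 1 it called 1 smooth muscle, 1 endothelial and 0 fibroblast markers. No list of dendritic cell or skeletal muscle markers held a call. At an unadjusted p under 0.05 by limma, 3 dendritic cell markers were higher and 1 was lower. By the same measure 2 skeletal muscle markers were lower, where 29.5% of all genes passed in either direction. Of 4 lymphocyte markers with a row, only Klrb1c of NK cells rose, a call that was lost with the block. The B cell marker Cd79b had a difference of −0.03 units, and Cd3d, Cd3e and Cd3g of T cells had no row. In these bulk libraries, fewer cells of a type and less RNA per cell cannot be told apart, and the part of these cell types in the differences of the 47 genes was not tested.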

How the data were processed

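RNA from 2 sham and 2 injury samples (480 ng each) was made into stranded mRNA libraries by the authors and sequenced in pairs. According to the submitters' processing notes, FastQC 0.11.8, Cutadapt 1.18, Trimmomatic 0.39, STAR 2.6.0a, featureCounts and DESeq2 1.28.0 in R 3.6.0 were used with mm9. The deposited values are a gene-centred score on a log-like scale, although the table is named for counts, and the step from counts to this score is not given in the sources used here. Their range is −2.273 to 6.452 with 50.5% negative, and the SD of a library over genes ranges from 0.321 to 0.438. They are not counts, so the study's count test could not be run, and no filter on low values was applied.

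Groups were taken from the labels. limma 3.58.1 in R 4.3.3 (lmFit and eBayes, group as the only term, 2 residual and 3.48 prior degrees of freedom, two-sided) was fitted on all 12661 genes, with Benjamini-Hochberg adjustment over all of them. An exact permutation test of 2 against 2 libraries cannot go below p = 0.333. On simulated data with the table's own spread, limma called 92.0% of changes of 2 units and 24.4% of changes of 1 unit, and 6.55 unchanged genes per run (20 runs of 12661 genes).

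The members and lists were chosen with earlier results of these data known. Every member is named with its difference. Called members and the highest and lowest of each role have the value of each library. From each other list, at most 4 called and 3 uncalled genes are named, by size of difference, except that Icam1 and Vcam1 were added after their values were seen, and a gene that this rule would name is not reported here. Coordinates are from the GENCODE annotation of mm9, in which each of the 50 symbols matched once. In it, 13 of the 47 genes overlap another annotated gene. Promoters are RefSeq's on GRCm38.p6, matched by symbol. No promoter entry was at hand for Tlr4, Tlr7, Cd14, Ly96, Ticam2, Map3k8, Tab1, Ripk2, Gsdmd, Ikbkb, Nfkb1, Relb and Nfkbiz. Alternatives were the replicate block, leaving out each library, quantile normalization, scaling of the columns to a common SD, a robust prior, a threshold of 0.1, identical rows counted once and a minimum difference of 1 unit.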

Additional observations from a re-analysis of the deposited data

How the results depend on the processing

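The genes called over the whole table were 941, and 0 to 1790 when a library was left out (0 without sham replicate 1, 1 without sham replicate 2, 284 without injury replicate 1 and 1790 without injury replicate 2). They were 2317 at a threshold of 0.1 and 591 with a minimum difference of 1 unit. The 7 calls among the 47 genes became 0 to 17, and 11 at a threshold of 0.1, where Cd14, Ly96, Tlr6 and Aim2 were added. The 4 calls in Toll-like receptor signalling became 0 to 7, the 2 in inflammasome genes 0 to 9, the 2 in NF-kB regulators 0 to 8 and the 2 in NF-kB targets 0 to 12 when a library was left out. At a threshold of 0.1 these lists held 7, 5, 5 and 9 calls. The NF-kB targets held 4 calls after quantile normalization and 4 with columns scaled to one spread, 3 higher and 1 lower in each, and the 9 at 0.1 were 7 higher and 2 lower. The causes were not tested. The 7 genes were called in each fit that kept all 4 libraries without a block. The median difference of 0.253 units ranged from 0.0594 to 0.5407 when a library was left out.

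Sign changes touched uncalled genes only, and leaving out a library could not reverse a called gene, because its groups did not overlap. Leaving out a library reversed 17 of the 47, with these ranges in units: Tlr3 −0.2609 to 0.0027, Irak1 −0.214 to 0.041, Irak3 −0.0348 to 0.2146, Irak4 −0.0362 to 0.2462, Map3k8 −0.2606 to 0.2513, Ripk3 −0.0258 to 0.474, Nod2 −0.4133 to 0.6285, Ikbkg −0.0812 to 0.196, Nfkb1 −0.3535 to 0.1162, Nfkb2 −0.1616 to 0.6721, Rel −0.3705 to 0.3636, Rela −0.1298 to 0.1916, Relb −0.0125 to 0.3669, Nfkbie −0.0918 to 1.177, Nfkbiz −0.0374 to 0.5387, Bcl3 −0.2908 to 0.6348 and Zc3h12a −0.4009 to 0.7275. After quantile normalization Map3k8 stood at 0.0165 and Rel at 0.0451, and Rel at 0.0477 with columns scaled to one spread.

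With the replicate number as a block, 684 genes were called, 579 of them shared with the 941, and 6 of the 47 genes, 5 of them shared with the 7. Tlr7 and Nlrp3 each had an adjusted p of 0.0535 and Aim2 of 0.0429. The deviations of samples with the same number had a correlation of −0.094 over genes, and 2 pairs do not show that the numbers pair the samples. Depth could not be read from these values, so a pseudocount or a filter on low counts could not be varied.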
